A study of Mus musculus with 18 samples.

Results

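The clustered histone genes are the genes that make the H1, H2A, H2B, H3 and H4 histones, most of which stand side by side in a few stretches of the genome. They were taken as every gene of the deposited table whose name follows the current naming of this family (H1f, H2ac, H2bc, H3c or H4c and a number), which gave 53 of the 14695 genes: 6 of class H1, 11 of H2A, 13 of H2B, 10 of H3 and 13 of H4. Of these, 45 lie on mouse chromosome 13, 4 on chromosome 3 (H2ac20, H2bc21, H3c13 and H4c14) and 2 on chromosome 11 (H2ac25 and H2bc27), by the GENCODE annotation of build GRCm38. H1f0 on chromosome 15 and H4c16 on chromosome 6 were the only members on their chromosomes, so the name clustered does not cover them.

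RNA with poly-A tails was sequenced from primary CD8+ T cells of mouse spleen and lymph node, in 18 libraries, 3 in each of 6 groups. The groups were cells with Atf4 knocked out by CRISPR/Cas9, with Cebpg knocked out, and with the Rosa26 locus targeted, a safe-harbour site that is the study's control, each kept for 24 hours with halofuginone or untreated. All groups, the Rosa26 controls included, were thus edited cells. Halofuginone blocks prolyl-tRNA synthetase, the enzyme that charges transfer RNA with proline, and so sets off the integrated stress response. ATF4 is the main transcription factor of that response, and C/EBPγ, the product of Cebpg, is a transcription factor that can pair with it. Nothing in the labels states whether the 3 libraries of each group are different animals or different cultures; the p-values then cover no more than the spread among these libraries, which may be technical.

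Core histones (H2A, H2B, H3 and H4) form the spool on which DNA is wound, and linker histones (H1) bind the DNA between spools. Cells make most of their histones while they copy DNA, in S phase, and the mRNAs of these genes end in a short stem-loop in place of a poly-A tail. The stem-loop is bound by SLBP, which serves in the making, translation and decay of these mRNAs, and they are destroyed when DNA copying stops. Activated CD8+ T cells divide fast and need much new histone. A library made from RNA with poly-A tails catches such mRNAs poorly, so the values below describe what was caught and not the full amount of histone mRNA.

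The stem-loops are shown because they are the mark of a histone mRNA made without a tail; a match in annotated sequence does not say which end an mRNA in these cells had. A search of the GENCODE transcripts (GRCm38) for a stem of 6 bases that starts with GG, a loop of 4 bases that starts with TT and the matching strand, within 200 bases after the stop codon, found one in 36 of the 53 members. The transcripts of 10 members are annotated only to within 1 base of the stop codon, where no stem-loop could be found. The form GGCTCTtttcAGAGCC stood in 19 members of the classes H1, H2A, H2B and H3, the form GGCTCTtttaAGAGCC in 5 of H2B and H3, and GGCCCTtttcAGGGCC in 7, all of class H4. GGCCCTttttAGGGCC stood in H4c14 and H4c9, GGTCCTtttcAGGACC in 2 H4 genes (H4c11 and H4c2), and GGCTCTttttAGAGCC in H2ac20 alone. The following 7, on the coding strand from 5′ to 3′ and with the paired stem in capitals, include typical genes of 3 core classes (H2ac11, H3c3 and H4c4) and 4 genes that come up below because of their values or their 3′ ends.
H2ac11: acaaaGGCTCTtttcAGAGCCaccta
H2ac25: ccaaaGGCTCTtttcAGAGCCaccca
H2bc27: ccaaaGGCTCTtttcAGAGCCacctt
H3c3: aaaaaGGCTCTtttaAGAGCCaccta
H4c4: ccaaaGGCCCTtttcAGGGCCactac
H4c14: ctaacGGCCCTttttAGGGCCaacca
H2ac20: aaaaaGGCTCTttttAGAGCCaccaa
H2ac11 ends 23 bases after its stem-loop, whereas the annotated transcripts go on for 1643 bases in H2ac25, 169 in H2bc27, 1257 in H4c14 and 2445 in H4c16. The poly-A hexamer AATAAA, the usual signal for cutting and tailing an mRNA, stood in the last 50 bases of the transcripts of 10 members: H1f0, H1f2, H2ac8, H2ac25, H2bc21, H2bc27, H4c1, H4c11, H4c14 and H4c16. A stem-loop was found in 7 of these 10 as well (H1f2, H2ac8, H2ac25, H2bc27, H4c11, H4c14 and H4c16). Among members annotated further past the stop codon, no stem-loop was found in H1f0, H1f1, H2bc4, H2bc21, H3c8, H3c13 and H4c1. These did not move alike with halofuginone: H1f1, H3c8 and H3c13 fell in all 3 genotypes, while H1f0, H2bc4 and H2bc21 fell in none.

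Libraries held 14.2 to 20.3 M counts. The members together had 1358 to 2319 reads in a treated library and 3252 to 5103 in an untreated one, and all 53 passed the filter on low counts. Levels are given as counts in a library scaled by TMM to 1 M counts (CPM). A member averaged between 0.393 CPM (H4c16) and 26.5 CPM (H1f0), with a median of 2.29 CPM over the members, against 19.2 CPM over all genes; 9 members had at least 5 CPM and 10 had less than 1. Per kilobase of annotated transcript, H3c3 led with 18.2 CPM, followed by H2bc11 with 13.7, H4c9 with 13.3, H1f0 with 12.9 and H3c1 with 12.1. Cd8a stood at 930 to 1170 CPM in every library and 8 of 8 T cell markers were measured, while the marker lists of B cells, myeloid cells, and erythroid cells and platelets summed to 2.24 to 13.6 CPM each. Only 3 of 6, 1 of 7 and 3 of 6 genes of those lists were measured, so the low sums do not show that such cells were absent. The CD4 list (Zbtb7b and Foxp3 were measured, Cd4 was not) summed to 33.6 to 36.3 CPM in treated Rosa26 libraries, against 8.19 to 9.09 CPM in untreated ones, and its part in the results was not tested. Of the NK cell list Eomes alone was measured, a transcription factor that CD8+ T cells also make, at 16 to 23.1 CPM in treated knockout libraries and 25.2 to 32.6 in treated Rosa26 libraries, against 46.7 to 68.6 and 82.6 to 86.1 CPM untreated. Like the histone sum, Eomes fell with the drug, by 1.57, 1.63 and 1.5 on the log2 scale in Atf4 KO, Cebpg KO and Rosa26 cells. It was also lower in both knockouts than in Rosa26 cells, by 0.41 to 0.80. The histone sum of Cebpg KO cells, in contrast, stood at 0.969 of the Rosa26 level untreated and 0.967 with halofuginone. The part of Eomes in the results was not tested either. Gene counts do not show small CRISPR edits: Atf4 mRNA stood at 274 to 301 CPM in untreated Atf4 KO libraries, against 256 to 281 CPM in untreated Rosa26 libraries, so these levels do not check the genotype labels. Malat1, a nuclear RNA that lacks a usual poly-A tail, was lower in 1 treated library of each genotype than in the other 2, at 1160 CPM in replicate 3 of Atf4 KO, 1960 in replicate 3 of Cebpg KO and 672 in replicate 2 of Rosa26. Results that rest on these 3 are also given without them.

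With halofuginone the clustered histone genes were far lower in all 3 genotypes. Their summed level was 83.4, 105 and 124 CPM in treated Atf4 KO libraries, against 200, 226 and 229 CPM in untreated ones. Treated Cebpg KO libraries had 89.9, 159 and 111 CPM, against 262, 249 and 279 CPM untreated. Treated Rosa26 libraries had 103, 144 and 124 CPM, against 261, 267 and 286 CPM untreated. No treated library reached the level of an untreated one, and the treated mean was 0.476 of the untreated mean in Atf4 KO cells, 0.455 in Cebpg KO cells and 0.456 in Rosa26 cells. Without the 3 libraries low in Malat1 the log2 ratios were -1.18, -1.04 and -1.21 in that order of genotypes, against -1.07, -1.13 and -1.13 with them. In bulk RNA, fewer cells making a transcript and less of it per cell cannot be told apart.

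Gene by gene, 39 of the 53 members fell and 4 rose in Atf4 KO cells, where 26.5% of all genes fell and 23.1% rose, at an adjusted p under 0.05 in edgeR's quasi-likelihood test. In Cebpg KO cells 39 fell and 3 rose, where 28% of all genes fell and 23.1% rose. In Rosa26 cells 39 fell and 3 rose, where 24.1% of all genes fell and 23.6% rose. The median log2 fold change of the members was -1.59 in Atf4 KO, -1.68 in Cebpg KO and -1.69 in Rosa26 cells, while that of all genes was -0.04, -0.03 and 0.02. Treated libraries lay wholly below untreated ones for 43 members in Atf4 KO cells (28.9% of all genes), 39 in Cebpg KO cells (32.7%) and 43 in Rosa26 cells (27.9%). Altogether 32 members fell in all 3 genotypes, 11 in 1 or 2 of them (H1f3, H2ac6, H2ac10, H2ac20, H2bc3, H2bc6, H3c4, H4c1, H4c12, H4c14 and H4c17), and 10 in none (H1f0, H1f2, H2ac22, H2ac25, H2bc4, H2bc8, H2bc15, H2bc21, H2bc27 and H4c16). The log2 fold change was below 0 in every genotype for 47 members.

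**Figure D1:**
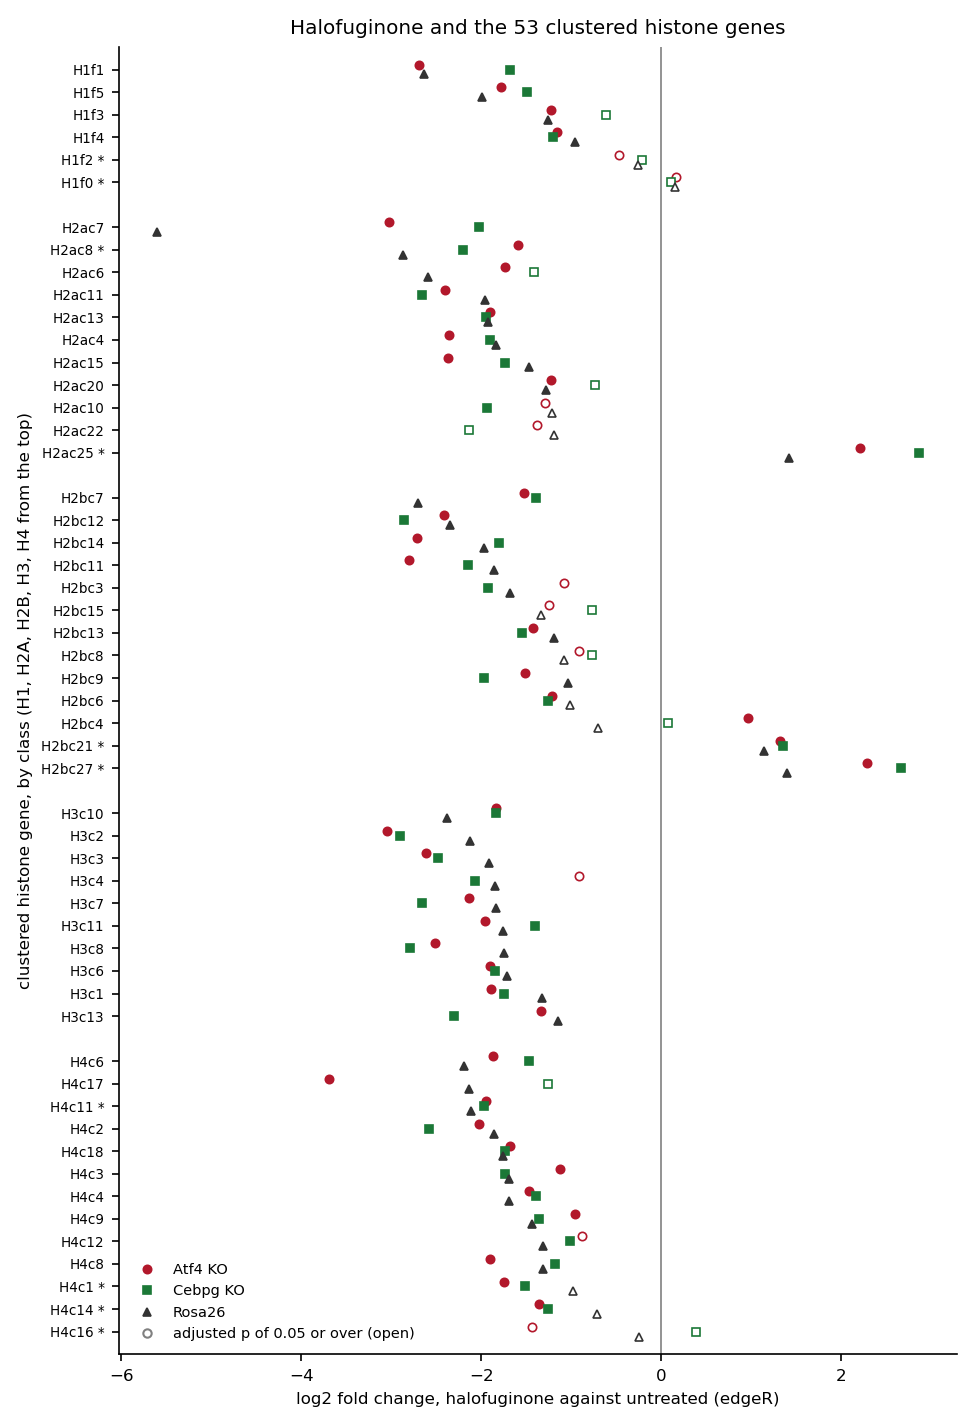
Each row is 1 of the 53 members, grouped by class, and each point is its log2 fold change (halofuginone against untreated, x axis) in Atf4 KO, Cebpg KO or Rosa26 cells; filled points passed an adjusted p of 0.05, and an asterisk marks the 10 members with the poly-A hexamer in the last 50 bases. Most points lie left of 0 in all 3 genotypes, while H2ac25, H2bc21 and H2bc27 lie right of it.

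The H3 genes, which make the core histone whose tail carries many of the known chromatin marks, fell most uniformly. In Atf4 KO cells 9 of the 10 fell, with H3c4 as the exception (-0.92), and all 10 fell in Cebpg KO and in Rosa26 cells; the median log2 fold changes were -1.93, -2.18 and -1.80 in that order. H3c3, the member with the highest level per kilobase, had 2.09, 2.12 and 3.22 CPM in treated Atf4 KO libraries, against 16.1, 17.3 and 12.4 CPM in untreated ones. Its treated Cebpg KO libraries had 3.06, 4.25 and 3.33 CPM, against 20.4, 20.3 and 18.4 CPM. Its treated Rosa26 libraries had 4.99, 6.95 and 5.42 CPM, against 23.0, 22.2 and 20.4 CPM. The groups were far apart in each genotype, and the log2 fold changes were -2.62 ± 0.179 (SE, n = 3 against 3; edgeR adjusted p 2.5e-10), -2.48 ± 0.169 (2.2e-10) and -1.92 ± 0.157 (4.3e-09). H3c1 lay at 1.29 to 5.23 CPM in the 9 treated libraries, against 7.75 to 12.4 CPM in the 9 untreated ones, and fell by 1.89, 1.75 and 1.33 on the log2 scale in Atf4 KO, Cebpg KO and Rosa26 cells. H3c10, at 0.614 to 1.94 CPM treated, against 3.14 to 6.96 CPM untreated, fell by 1.84, 1.84 and 2.38.

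Genes of class H4, the core histone that pairs with H3 and whose gene copies nearly all make the same protein, fell in 11, 11 and 10 of 13 cases in Atf4 KO, Cebpg KO and Rosa26 cells, with medians of -1.68, -1.39 and -1.69. H4c9 was the most abundant of them. It had 3.93, 4.49 and 7.16 CPM in treated Atf4 KO libraries, against 11.5, 10.4 and 8.48 CPM untreated. Treated Cebpg KO libraries had 4.10, 6.11 and 4.45 CPM of H4c9, against 14, 11.3 and 12.1 CPM untreated. In treated Rosa26 libraries H4c9 had 6.20, 8.88 and 5.23 CPM, against 16.4, 20.2 and 18.5 CPM untreated. H4c9 was thus lower in every treated library of its genotype, with the narrowest gap in Atf4 KO cells (log2 fold change -0.96 ± 0.218, edgeR adjusted p 0.00107) and wider ones in Cebpg KO (-1.36 ± 0.218, 3.1e-05) and Rosa26 cells (-1.44 ± 0.205, 9.5e-06). H4c2, at 0.614 to 2.05 CPM treated, against 3.7 to 7.29 CPM untreated, fell by 2.03, 2.58 and 1.86. H4c4, at 1.04 to 4.67 CPM treated, against 4.13 to 8.79 CPM untreated, fell by 1.47, 1.39 and 1.69. H4c16, picked out after its values were seen, which sits apart on chromosome 6 and has the longest stretch after its stem-loop among the H4 genes, passed in none (-1.44, 0.38 and -0.25), at 0.123 to 0.866 CPM in all libraries.

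H2A and H2B form the dimer that flanks the H3 and H4 core. H2A genes fell in 8, 7 and 8 of 11 cases in Atf4 KO, Cebpg KO and Rosa26 cells (medians -1.74, -1.94 and -1.84), and H2B genes in 7, 8 and 7 of 13 (medians -1.25, -1.39 and -1.19). H2ac11 had 0.676, 0.687 and 1.25 CPM in treated Atf4 KO libraries, against 3.82, 5.54 and 4.57 CPM in untreated ones. The treated Cebpg KO libraries had 0.546, 0.480 and 1.53 CPM of H2ac11, against 5.72, 4.38 and 5.87 CPM. Its levels in treated Rosa26 libraries were 1.5, 2.11 and 1.74 CPM, against 5.64, 7.6 and 7.52 CPM untreated. No groups overlapped, and the log2 fold changes were -2.40 ± 0.334 (edgeR adjusted p 5.2e-06), -2.66 ± 0.337 (1.5e-06) and -1.96 ± 0.302 (2.1e-05). H2ac13, at 0.798 to 1.93 CPM treated, against 3.08 to 6.57 CPM untreated, fell by 1.90, 1.95 and 1.93. H2ac8, at 0.374 to 1.3 CPM treated, against 1.85 to 6.96 CPM untreated, fell by 1.59, 2.20 and 2.87. H2ac7, picked out after its values were seen, had the lowest fitted value of any member in Rosa26 cells (-5.60), which rests on 1 read in the 3 treated libraries against 66 in the untreated ones and is not a measure of size. The treated libraries together had 4 reads of H2ac7 in Atf4 KO and 8 in Cebpg KO cells. No treated library reached the filter's minimum count of 10, so H2ac7 was tested only through its untreated libraries.

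H2bc11, which shares its upstream region with H2ac11, was the most abundant H2B gene of the chromosome 13 cluster. Treated Atf4 KO libraries had 1.11, 0.999 and 1.61 CPM of it, against 9.43, 9.12 and 7.49 CPM untreated. Levels of H2bc11 in treated Cebpg KO libraries were 2.19, 2.26 and 2.43 CPM, against 9.74, 8.98 and 12 CPM untreated. In Rosa26 cells they were 2.42, 4.84 and 2.93 CPM with the drug, against 11.9, 12 and 12.9 CPM without. All treated values lay below all untreated ones, and H2bc11 fell by 2.80 ± 0.235 (edgeR adjusted p 5.3e-09), 2.15 ± 0.217 (6.1e-08) and 1.86 ± 0.204 (2.6e-07) on the log2 scale. H2bc12, at 0.553 to 1.74 CPM treated, against 2.78 to 7.36 CPM untreated, fell by 2.41, 2.86 and 2.35.

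Linker histones did not move alike, and both H1f0, described below, and H1f2 fell in no genotype. H1f2 had log2 fold changes of -0.47, -0.22 and -0.26 in Atf4 KO, Cebpg KO and Rosa26 cells (edgeR adjusted p 0.0541, 0.383 and 0.321). H1f3 fell in Atf4 KO (-1.23) and Rosa26 cells (-1.26) and did not pass in Cebpg KO cells (-0.62, edgeR adjusted p 0.0949). Of the 6 H1 genes, 4 fell in Atf4 KO, 3 in Cebpg KO and 4 in Rosa26 cells, with medians of -1.19, -0.91 and -1.11, and their summed level with halofuginone was 0.694, 0.712 and 0.772 of the untreated level. H1f0 carried much of that sum: the other 5 H1 genes, a group taken after the values were seen, summed to 20.9 ± 4.43 CPM in treated and 43.4 ± 6.6 CPM in untreated Atf4 KO libraries (SD, n = 3), 27.5 ± 12.9 and 51.2 ± 6.45 CPM in Cebpg KO, and 20.1 ± 5.65 and 38.9 ± 4.62 CPM in Rosa26 libraries. Their treated means were 0.483, 0.536 and 0.516 of the untreated ones, next to 0.476, 0.455 and 0.456 for all 53 members. For comparison the summed H3 genes stood at 0.237, 0.235 and 0.297, the H4 genes at 0.377, 0.368 and 0.345, the H2A genes at 0.321, 0.313 and 0.284, and the H2B genes at 0.643, 0.518 and 0.481. H1f4, a major linker histone of dividing cells, had 5.28, 10.9 and 8.65 CPM in treated Atf4 KO libraries, against 14.8, 18.5 and 22.1 CPM untreated. For Cebpg KO its levels were 6.39, 17.6 and 8.89 CPM treated, against 20.2, 23.9 and 30.7 CPM, and for Rosa26 5.13, 11.2 and 10 CPM, against 16.6, 15.9 and 18.4 CPM. The groups did not overlap, although in each genotype the lowest treated library stood well below the highest; the log2 fold changes were -1.16 ± 0.355 (edgeR adjusted p 0.0133), -1.20 ± 0.343 (0.00877) and -0.96 ± 0.352 (0.0348), and these calls were lost under 2, 2 and 7 of the alternatives tried, among them without the 3 libraries low in Malat1 (adjusted p 0.0564, 0.059 and 0.0547). In Atf4 KO cells the H1f4 call was also lost without replicate 1 of the treated cells, in Cebpg KO cells with only the compared libraries in the fit, and in Rosa26 cells with the Malat1 covariate and without replicate 1 or 3 of the treated or any replicate of the untreated cells (adjusted p 0.0504 to 0.148). The annotated exons of H1f4 and H2bc6 overlap by 450 bases on the same strand, so reads there cannot be assigned to 1 of them. H1f5, at 0.737 to 3.84 CPM treated, against 3.41 to 6.95 CPM untreated, fell by 1.78, 1.49 and 1.99. H1f1, at 0.0621 to 1.65 CPM treated, against 1.44 to 3.17 CPM untreated, fell by 2.69, 1.68 and 2.64, and its Cebpg KO call was lost without replicate 1 or 3 of the treated cells (adjusted p 0.0656 and 0.0538).

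H1f0 makes a linker histone that is known to build up in cells that have stopped dividing, and its mRNA has a poly-A tail. It was the most abundant member and showed no change that passed the test. Treated Atf4 KO libraries had 21.3, 21.7 and 29.2 CPM, against 22.9, 21.2 and 20.3 CPM untreated; for Cebpg KO the levels were 24.6, 25.1 and 30.1 CPM, against 25.3, 22.4 and 26.3 CPM. With Rosa26 targeted they were 32.2, 37.8 and 28.0 CPM treated, against 28.6, 29.7 and 29.9 CPM untreated. Treated and untreated levels overlapped in all 3 genotypes, with log2 fold changes of 0.16 ± 0.125, 0.11 ± 0.123 and 0.15 ± 0.12 (edgeR adjusted p 0.295, 0.496 and 0.327). With the Malat1 level as a covariate H1f0 passed in Cebpg KO (0.20) and Rosa26 cells (0.29). An antisense gene of the table shares 163 bases with H1f0 on the other strand, and the strand setting of the counting is not given in the sources used here.

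Against the fall of most members, H2bc21, H2ac25 and H2bc27 rose in every genotype. H2bc21, the H2B gene of the chromosome 3 cluster, had 7, 5.24 and 6.5 CPM in treated Atf4 KO libraries, against 3.14, 2.19 and 2.19 CPM in untreated ones. Treated Cebpg KO libraries had 5.03, 5.76 and 6.46 CPM of H2bc21, against 1.87, 2.82 and 2.03 CPM untreated. Treated Rosa26 libraries had 5.28, 5.34 and 4.67 CPM, against 2.22, 2.75 and 1.96 CPM untreated. The treated libraries, with 75 to 114 reads each, all lay above the untreated ones, with 30 to 51 reads. The log2 fold changes of H2bc21 were 1.32 ± 0.21 (edgeR adjusted p 2.8e-05), 1.35 ± 0.213 (2.2e-05) and 1.14 ± 0.212 (0.000162), and all of its 50-base windows occur in no other annotated transcript.

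The H2A and H2B genes of chromosome 11 moved with it, at lower counts. H2bc27 had 4.12, 3.06 and 5.73 CPM in treated Atf4 KO libraries, against 0.801, 0.981 and 0.861 CPM untreated. In treated Cebpg KO libraries it had 2.40, 2.75 and 3.33 CPM, against 0.340, 0.691 and 0.270 CPM untreated. Rosa26 libraries had 2.71, 2.24 and 1.81 CPM of H2bc27 with the drug, against 0.360, 1.02 and 1.18 CPM without. The groups lay apart in each genotype, and H2bc27 rose by 2.28 ± 0.368 (edgeR adjusted p 3.2e-05), 2.66 ± 0.408 (1.5e-05) and 1.39 ± 0.374 (0.00426) on the log2 scale. H2ac25 had 1.90, 1.44 and 1.31 CPM in treated Atf4 KO libraries, against 0.308, 0.346 and 0.331 CPM untreated. Its treated Cebpg KO libraries had 0.929, 1.24 and 1.46 CPM, against 0.113, 0.288 and 0.0675 CPM, and its treated Rosa26 libraries 0.630, 0.621 and 0.685 CPM, against 0.420, 0.179 and 0.112 CPM. H2ac25 was higher in every treated library, at 10 to 31 reads against 1 to 7 untreated, and the log2 fold changes were 2.21 ± 0.453 (edgeR adjusted p 0.000388), 2.86 ± 0.511 (9.2e-05) and 1.42 ± 0.501 (0.0242). Its untreated libraries were all under the filter's minimum count of 10, so H2ac25 was tested only through its treated libraries. Its place among the tested members and its rise are therefore tied to each other. The Rosa26 call of H2ac25 was lost without replicate 3 of the treated (adjusted p 0.0547) or replicate 2 or 3 of the untreated Rosa26 cells (0.0772 and 0.108), and with only the compared libraries in the fit (0.0685). In the annotation, H2ac25 shares 708 bases with an exon of Trim17 on the same strand, and Trim17 was not analysed here.

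**Figure D2:**
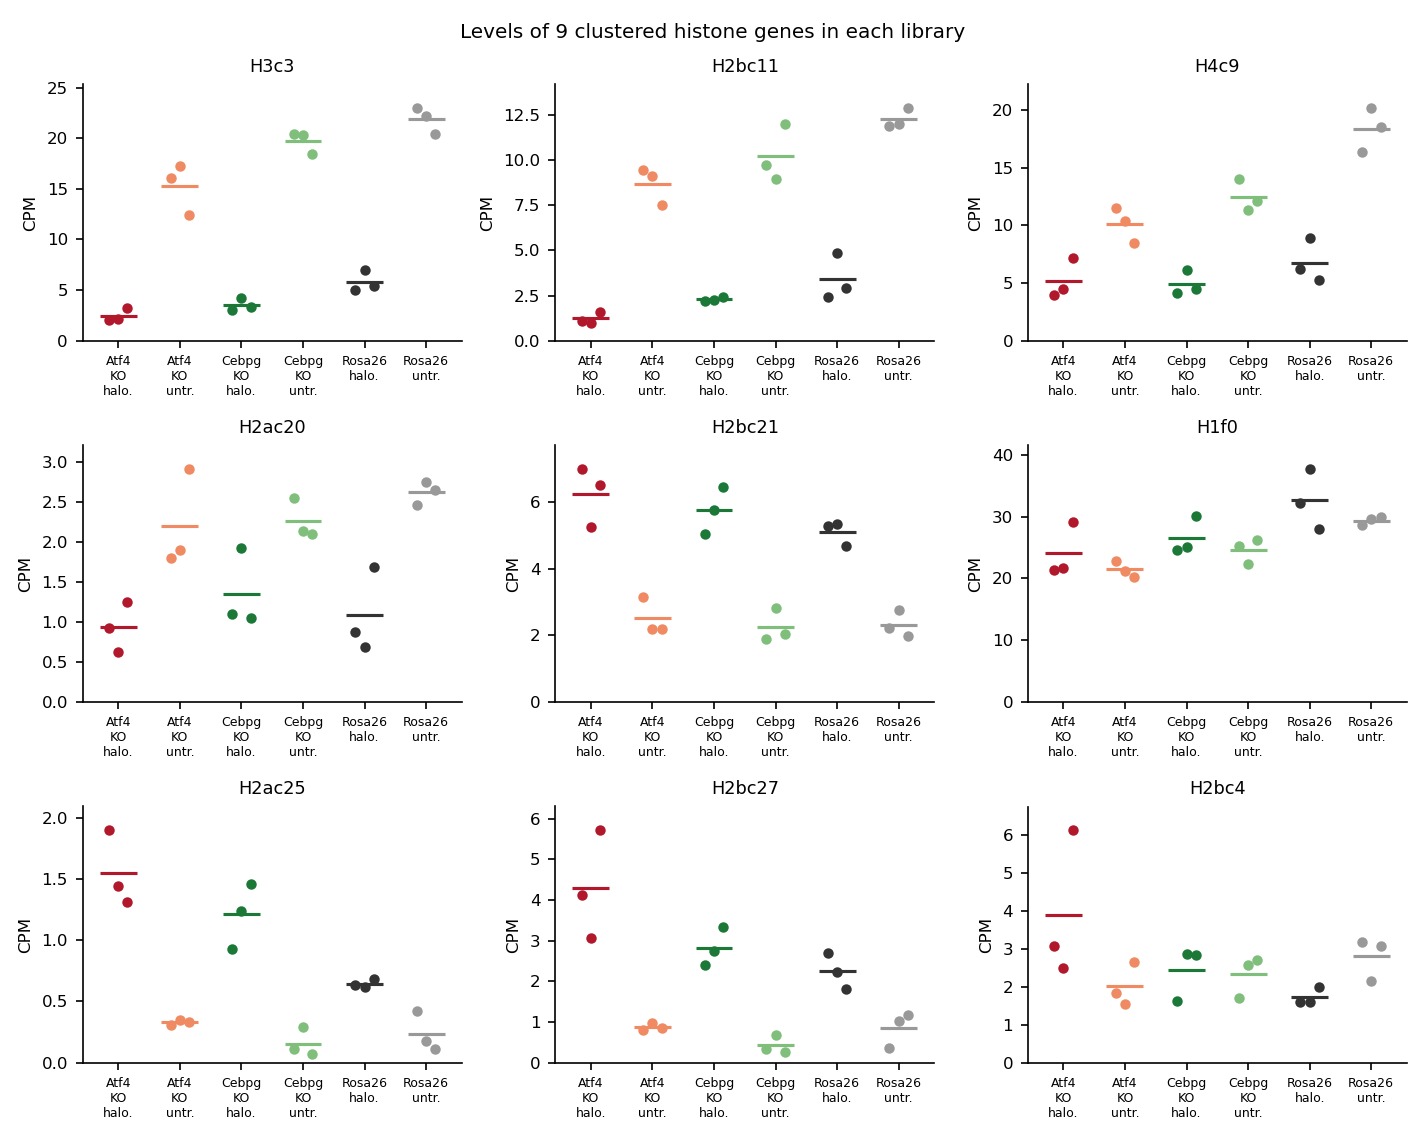
Level in CPM (y axis) of 9 members in each library, 1 panel a gene, with treated libraries left of untreated ones for Atf4 KO, Cebpg KO and Rosa26 cells; points are libraries and lines are means. H3c3, H2bc11 and H4c9 are low with halofuginone, H2bc21, H2ac25 and H2bc27 are high, and the groups of H1f0 overlap.

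H2ac20, the other gene of the H2bc21 pair, was picked out after its values were seen. It had 0.921, 0.624 and 1.25 CPM in treated Atf4 KO libraries, against 1.79, 1.90 and 2.91 CPM untreated. Treated Cebpg KO libraries had 1.09, 1.92 and 1.04 CPM, against 2.55, 2.13 and 2.09 CPM, and treated Rosa26 libraries 0.872, 0.683 and 1.68 CPM, against 2.46, 2.75 and 2.64 CPM. H2ac20 was lower in every treated library, the opposite of H2bc21, and fell in Atf4 KO (-1.23 ± 0.359, edgeR adjusted p 0.0076) and Rosa26 cells (-1.28 ± 0.348, 0.00471) but did not pass in Cebpg KO cells (-0.74 ± 0.347, 0.0817). The start sites of H2ac20 and H2bc21 face away from each other with 238 bases between them. This shared upstream stretch (RefSeq, GRCm38.p6, chr3:96220881-96221118, minus strand, ending just before the start of H2ac20) is shown because its genes went opposite ways; capitals mark the TATA box letters TATAAA, the letters CCAAT of another common promoter box (which on the other strand read ATTGG), and the octamer ATTTGCAT, to which OCT1 binds in H2B promoters (on the other strand ATGCAAAT).
H2ac20 and H2bc21: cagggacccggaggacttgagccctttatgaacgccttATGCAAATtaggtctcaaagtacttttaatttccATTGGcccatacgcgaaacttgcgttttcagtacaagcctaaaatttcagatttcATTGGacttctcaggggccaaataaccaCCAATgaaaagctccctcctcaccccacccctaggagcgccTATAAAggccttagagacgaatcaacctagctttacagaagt
It held 1 TATAAA, 42 bases before the start of H2ac20, 3 CCAAT and 1 octamer, which stood 200 bases before that start and on the strand of H2bc21. The 250 bases before the start of H2ac11 (chr13:22042950-22043199, minus strand), part of the stretch it shares with H2bc11, are shown for comparison because both of those genes fell in all 3 genotypes.
H2ac11: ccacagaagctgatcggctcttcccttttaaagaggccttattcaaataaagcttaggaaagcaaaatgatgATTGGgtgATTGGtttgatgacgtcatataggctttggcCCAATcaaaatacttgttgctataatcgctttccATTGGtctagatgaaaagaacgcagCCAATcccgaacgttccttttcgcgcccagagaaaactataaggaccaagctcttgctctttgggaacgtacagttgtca
It held 5 CCAAT and neither of the other motifs. Among the 45 members with a RefSeq promoter, searched on both strands over 250 upstream bases, 53.3% held TATAAA (13% of 27025 promoters of all genes), 80% CCAAT (34.5%) and 17.8% the octamer (1.61%). CCAAT stood in all 10 H2A, 10 H2B and 8 H3 promoters but in 27.3% of 11 H4 promoters, and the octamer was found in 4 H2A and 4 H2B promoters only. Paired H2A and H2B genes that face away from each other share much of the searched stretch, such as H2ac8 and H2bc8 with 175 bases between their starts. A motif there counts for both genes, so these shares do not describe separate stretches. In the stretches shown the marked motifs do not overlap, and a match is a description of the sequence.

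Of the 8 pairs of members that face away from each other with less than 1000 bases between their starts, 4 had both genes fall in all 3 genotypes: H2ac11 with H2bc11, H2ac13 with H2bc13, H2ac7 with H2bc7, and H3c7 with H2bc9. In H2ac15 with H2bc15 and in H2ac8 with H2bc8 the H2A gene fell in all 3 and the H2B gene passed in none, at log2 fold changes of -1.25, -0.77 and -1.34 for H2bc15 and -0.92, -0.77 and -1.08 for H2bc8. The last pair was H2ac6 with H2bc4. H2ac6 fell in Atf4 KO (-1.74) and Rosa26 cells (-2.59), with -1.42 in Cebpg KO cells. H2bc4 had 3.07, 2.5 and 6.15 CPM in treated Atf4 KO libraries, against 1.85, 1.56 and 2.65 CPM untreated; in Cebpg KO cells it had 1.64, 2.88 and 2.85 CPM, against 1.70, 2.59 and 2.70 CPM. In Rosa26 cells H2bc4 had 1.60, 1.61 and 1.99 CPM, against 3.18, 2.15 and 3.09 CPM. It thus overlapped between treated and untreated libraries in both knockouts and lay below the untreated ones in Rosa26 cells; it rose in Atf4 KO cells (0.96 ± 0.334, edgeR adjusted p 0.0224), and passed in neither Cebpg KO (0.07 ± 0.339) nor Rosa26 cells (-0.70 ± 0.34). Without replicate 3 of the treated Atf4 KO cells, its highest library, the Atf4 KO value was 0.51 (adjusted p 0.201), and the call was also lost without replicate 1 or 2 of the untreated Atf4 KO cells (0.0698 and 0.0979), without the 3 libraries low in Malat1 (0.167), and with only the compared libraries (0.063).

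The members split by their annotated 3′ ends. The 43 members without the poly-A hexamer in the last 50 annotated bases summed to 57.1 ± 15 CPM in treated and 173 ± 14.5 CPM in untreated Atf4 KO libraries (SD, n = 3), 71.4 ± 31.8 and 215 ± 12 CPM in Cebpg KO, and 72.9 ± 16.4 and 219 ± 11.5 CPM in Rosa26 libraries, so that treated means were 0.329, 0.332 and 0.333 of untreated ones. The 10 with the hexamer summed to 46.9 ± 6.94 CPM in treated and 45.1 ± 2.05 CPM in untreated Atf4 KO, 48.5 ± 5.31 and 48 ± 2.79 CPM in Cebpg KO, and 51 ± 7.68 and 52.8 ± 2.46 CPM in Rosa26 libraries, with ratios of 1.04, 1.01 and 0.965. Genes with the hexamer made up 40.6 to 51.8% of the members' reads in treated and 19.4 to 21.6% in untreated Atf4 KO libraries, 32.3 to 47.1% and 18.1 to 18.5% in Cebpg KO, and 35.7 to 47.5% and 18.9 to 20.2% in Rosa26 libraries. H1f0 was the most abundant of the 10, which did not move alike: 4 of the 10 fell and 3 rose in Atf4 KO, 4 and 3 in Cebpg KO, and 2 and 3 in Rosa26 cells, with medians of -0.91, -0.06 and -0.25. Of the 43, 35, 35 and 37 fell and 1, 0 and 0 rose, with medians of -1.78, -1.74 and -1.75. These 43 are not all known to lack the hexamer. In 10 of them (H1f5, H2ac10, H2ac13, H2ac15, H2ac22, H2bc13, H2bc15, H3c10, H3c11 and H4c12) the annotation ends at the stop codon, so there was no 3′ end to search, and 5 (H1f3, H2ac6, H2bc4, H2bc6 and H2bc9) hold it elsewhere after the stop. Split this way after the values were seen, the treated mean was 0.325, 0.358 and 0.314 of the untreated one for the 10, 0.574, 0.541 and 0.468 for the 5, and 0.295, 0.298 and 0.323 for the other 28 members, of which 25, 25 and 27 fell. By place, the summed members of chromosome 13 stood at 0.349, 0.352 and 0.343 of the untreated level and the other 8 members at 1.2, 1.1 and 1.1. H1f0 was the most abundant of these 8, which did not move alike: 3, 2 and 2 fell and 3 rose in each genotype. H1f0, H2ac25, H2bc21, H2bc27, H4c14 and H4c16 are in both the hexamer group and these 8, so the splits by 3′ end and by place largely coincide. Of the hexamer genes on chromosome 13, H2ac8 and H4c11 fell in all 3 genotypes, H4c1 in both knockouts and H1f2 in none. Off chromosome 13 and without the hexamer, H3c13 fell in all 3 and H2ac20 in Atf4 KO and Rosa26 cells.

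**Figure D3:**
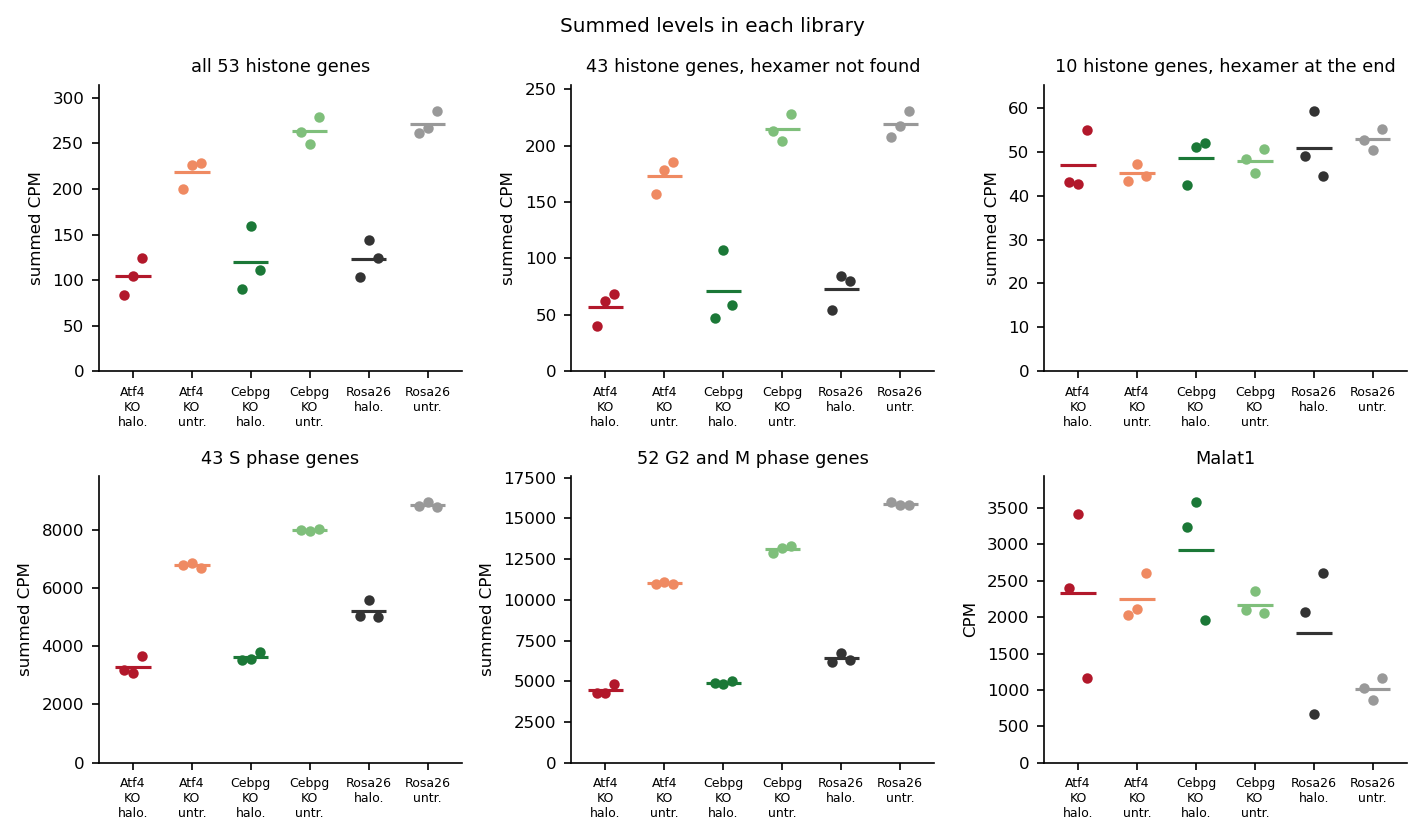
Summed level in CPM (y axis) of all 53 members, of the 43 members in which the poly-A hexamer was not found in the last 50 annotated bases, of the 10 in which it was, of the S phase list, of the G2 and M phase list, and the level of Malat1; points are libraries, lines are means, and treated libraries stand left of untreated ones for Atf4 KO, Cebpg KO and Rosa26 cells. Treated means are 0.329 to 0.333 of untreated ones for the 43 members, 0.455 to 0.590 for the S phase list and 0.372 to 0.405 for the G2 and M phase list, whereas the 10 average 45.1 to 52.8 CPM in all 6 groups.

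Many members are near copies, and how reads that match several of them were counted is not given in the sources used here. Between 6.08% (H3c10) and 100% (H1f0, H1f1, H1f5 and H2bc21) of a member's 50-base windows occur in no other annotated transcript, with a median of 54.2%. Of the 31 members with at least 50% of windows to themselves, 21 fell in Atf4 KO, 20 in Cebpg KO and 20 in Rosa26 cells (medians -1.36, -1.39 and -1.32). Of the 22 with less, 18, 19 and 19 fell (medians -1.93, -1.92 and -1.80). Values of single genes in the second group, H3c10 among them, are uncertain. H3c13 shares 488 bases with an antisense gene of the table and is uncertain for that reason. By level, 13 of the 17 members with at least 3 CPM and 26 of the 36 with less fell in each genotype.

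The SD of the summed level was larger in each treated group than in the untreated group of its genotype. Replicate 2 of the treated Cebpg KO cells had the highest level of its group for 41 of the 53 members, and its sum of 159 CPM stood against 89.9 and 111 CPM in the other libraries of that group. Replicate 1 was the lowest for 36 members in treated Atf4 KO cells, for 33 in treated Cebpg KO cells and for 34 in treated Rosa26 cells, and also for 34 in untreated Atf4 KO cells. Malat1 was at 2400, 3420 and 1160 CPM in treated Atf4 KO libraries, against 2030, 2110 and 2610 CPM untreated. Treated Cebpg KO libraries had 3240, 3580 and 1960 CPM of Malat1, against 2100, 2360 and 2050 CPM, and treated Rosa26 libraries 2070, 672 and 2610 CPM, against 1020, 858 and 1170 CPM. The list of RNAs without a usual poly-A tail (Malat1, Neat1, Rn7sk and Scarna2) summed to 1.1, 1.43 and 1.86 times the untreated level with halofuginone in Atf4 KO, Cebpg KO and Rosa26 cells, and 0, 2 and 3 of the 4 rose. A sum over 829 genes annotated as unconfirmed transcripts stood at 0.867, 1.06 and 1.25 of the untreated level. What these RNAs contribute to the histone values was not tested directly; with the Malat1 level as a covariate, 46, 45 and 44 members passed in either direction in Atf4 KO, Cebpg KO and Rosa26 cells, and without the 3 libraries low in it 41, 39 and 45. With all libraries and no covariate 43, 42 and 42 did, where 49.6, 51 and 47.7% of all genes passed.

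Because histone mRNA is made in S phase, the members were set beside lists of cell cycle genes. The S phase list (43 genes such as Pcna, Mcm5 and Rrm2, which copy DNA or make its building blocks) summed to 3300 ± 305 CPM in treated and 6790 ± 86.3 CPM in untreated Atf4 KO libraries, a ratio of 0.487. It had 3630 ± 139 and 7990 ± 24.3 CPM in Cebpg KO (0.455) and 5220 ± 332 and 8840 ± 88.2 CPM in Rosa26 libraries (0.590). The list of G2 and M phase genes (52 genes such as Mki67, a marker of dividing cells) stood at 0.405, 0.372 and 0.405 of the untreated level. Of the S phase genes 42, 43 and 42 of 43 fell (medians -1.13, -1.19 and -0.69), Rrm2 by 1.68, 1.78 and 1.34, Pcna by 0.91, 1.19 and 0.85, and Mcm5 by 1.15, 1.14 and 0.69, and 51 of the 52 G2 and M phase genes fell in each genotype (medians -1.58, -1.68 and -1.49). The histone sum per unit of S phase sum was 0.0261, 0.0342 and 0.0339 in treated Atf4 KO libraries, against 0.0295, 0.0329 and 0.0343 untreated. In Cebpg KO it was 0.0254, 0.0445 and 0.0293, against 0.0327, 0.0313 and 0.0348, and in Rosa26 0.0205, 0.0257 and 0.0248, against 0.0297, 0.0299 and 0.0326. Relative to S phase genes, treated and untreated libraries overlapped in both knockouts and lay apart in Rosa26 cells, where the treated mean was 0.770 of the untreated one. Relative to the G2 and M phase sum the order was the opposite, with treated means at 1.17, 1.23 and 1.12 of untreated ones in Atf4 KO, Cebpg KO and Rosa26 cells, and Rosa26 libraries at 0.0166, 0.0213 and 0.0198 treated overlapped with 0.0164, 0.0169 and 0.0182 untreated. Whether the sum of all 53 members was lower relative to the cell cycle in Rosa26 cells therefore depended on the list. That sum includes the 10 members with the poly-A hexamer at the end, at 1.04, 1.01 and 0.965 of the untreated level. The treated means of the 43 others were 0.329, 0.332 and 0.333 of untreated ones, below the ratios of both lists in each genotype. These are ratios of means, and single treated libraries of the 43 spread widely. They summed to 40.2, 62.4 and 68.7 CPM in Atf4 KO, 47.5, 107 and 59.1 CPM in Cebpg KO, and 54.2, 84.6 and 80 CPM in Rosa26 cells. Whether the 43 differ from the lists beyond that spread was not tested.

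**Figure D4:**
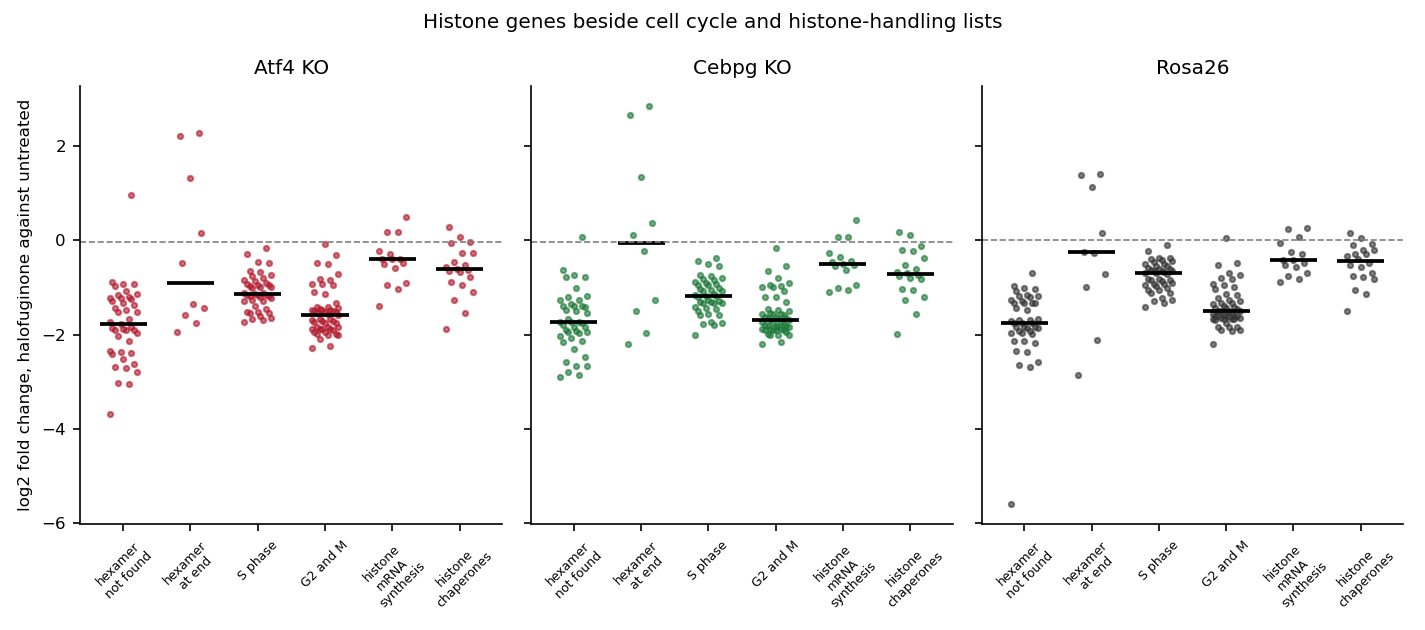
Each point is the log2 fold change (halofuginone against untreated, y axis) of 1 gene, by list along the x axis, in Atf4 KO, Cebpg KO and Rosa26 cells; black lines are medians and the dashed line is the median of all genes. Histone genes in which the poly-A hexamer was not found at the annotated end have medians of -1.74 to -1.78 and those with it -0.06 to -0.91, next to -0.69 to -1.19 for S phase genes and -1.49 to -1.68 for G2 and M phase genes.

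The genes that make, process and destroy histone mRNA moved less. Of 15 genes for its synthesis and processing, 12 fell and 2 rose in Atf4 KO, 12 and 1 in Cebpg KO, and 11 and 1 in Rosa26 cells (medians -0.40, -0.51 and -0.42). Slbp, whose protein binds the stem-loop, fell by 0.95, 1.01 and 0.69 on the log2 scale, to a mean of 132 CPM in treated Rosa26 libraries, against 214 CPM in untreated ones. Casp8ap2, which is needed at the sites where histone genes are transcribed, fell by 0.47, 0.51 and 0.42, and Zfp473, a part of the machinery that cuts the mRNA end, by 1.39, 1.09 and 0.88. Npat, the coactivator of histone genes, fell in Atf4 KO (-0.22, edgeR adjusted p 0.0364) and Cebpg KO cells (-0.27, 0.0106) and did not pass in Rosa26 cells (-0.05, 0.658). Lsm11, a subunit of the U7 particle that directs the cut, rose by 0.50, 0.43 and 0.26. Among 6 genes of histone mRNA decay, Eri1, a nuclease that trims the stem-loop, fell by 0.85, 1.08 and 0.85 and Upf1, a helicase of RNA decay, by 0.26, 0.45 and 0.34, while the uridyl transferase genes Tut4 (1.0, 1.03 and 0.83) and Tut7 (0.40, 0.50 and 0.34) rose.

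Histone chaperones, which carry new histones to DNA, also fell: 16, 17 and 16 of 20 fell and 0 rose in Atf4 KO, Cebpg KO and Rosa26 cells, with medians of -0.61, -0.71 and -0.43. Asf1b, a chaperone of H3 and H4, fell by 1.89, 1.99 and 1.51. Chaf1b and Chaf1a, subunits of the CAF-1 complex that loads H3 and H4 behind the replication fork, fell by 1.54, 1.57 and 1.05 and by 1.27, 1.26 and 0.76, and Nasp by 0.95, 1.06 and 0.81. Slbp and Nasp are also in the S phase list. Of 9 measured histone genes outside the family rule, whose mRNAs mostly have poly-A tails, 4, 7 and 4 fell and 1 rose in each genotype. H2ax, an H2A variant used in DNA repair, fell by 1.24, 1.13 and 1.11, and Cenpa, the H3 variant of centromeres, by 1.42, 1.57 and 1.90. H3f3b, which makes the replacement histone H3.3, rose in Atf4 KO (0.57) and Cebpg KO cells (0.35), with 0.08 in Rosa26 cells. H2az1, which makes the variant H2A.Z, fell in Atf4 KO (-0.55) and Cebpg KO cells (-0.64), with -0.30 in Rosa26 cells.

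Untreated Atf4 KO cells had a lower histone sum than untreated Rosa26 cells. It was 200, 226 and 229 CPM in Atf4 KO libraries, against 261, 267 and 286 CPM in Rosa26 libraries, a ratio of 0.805 with no overlap. Singly, 5 members fell, a share of 9.43% that is below the 14.3% of all genes that fell. None rose, where 11.7% of all genes rose and 26% passed in either direction. The median was -0.31, and 12 members had an unadjusted p under 0.05 in edgeR. All Atf4 KO libraries lay below all Rosa26 ones for 16 members, 30.2% of them against 25.6% of all genes. The 5 were H3c3 (-0.51 ± 0.144, edgeR adjusted p 0.0125), H4c9 (-0.86 ± 0.199, 0.00378), H2ac8 (-1.20 ± 0.345, 0.0143), H2bc12 (-0.88 ± 0.261, 0.0172) and H1f0 (-0.46 ± 0.123, 0.01). H2ac8 had 2.90, 3.17 and 1.85 CPM in untreated Atf4 KO libraries, against 6.43, 4.90 and 6.96 CPM in untreated Rosa26 ones, and H2bc12 had 2.90, 4.79 and 2.78 CPM, against 6.91, 6.46 and 6.01 CPM. With the values of H3c3, H4c9 and H1f0 given above, none of these 5 overlapped between the genotypes. In the same comparison 33 of 43 S phase genes and 50 of 52 G2 and M phase genes fell. The 4 RNAs without a usual poly-A tail summed to 2.2 times the Rosa26 level in untreated Atf4 KO cells, where Rn7sk (1.39) and Scarna2 (2.33) rose, and the unconfirmed transcripts to 1.73 times; their part in this difference was not tested beyond the Malat1 covariate. The count depended on the fit: 1 member (higher) with the Malat1 covariate, 8 in DESeq2, 13 without the 3 libraries low in Malat1, 14 with only the compared libraries, and 2 without replicate 3 of untreated Atf4 KO cells or 3 without replicate 1 of untreated Rosa26 cells.

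With halofuginone, 8 members fell (16.3% of all genes) and 3 rose (11.8%; 28.1% in either direction) in Atf4 KO against Rosa26 cells, with a median of -0.33 and a summed level 0.84 of the Rosa26 level. H3c3 (-1.21, edgeR adjusted p 7.2e-05) and H2bc11 (-1.43, 0.000196) fell most firmly; the others were H2ac15 (-1.58), H2bc14 (-1.22), H2ac11 (-1.02), H2bc12 (-0.94), H3c1 (-0.84) and H1f0 (-0.44). H2ac15 had 0.246, 0.749 and 0.477 CPM in treated Atf4 KO libraries, against 1.07, 1.93 and 1.49 CPM in treated Rosa26 ones. H2ac25 (1.26, edgeR adjusted p 0.0276), H2bc27 (0.93, 0.0445) and H2bc4 (1.17, 0.0123) rose, and the levels above show no overlap for any of these 3. Among the 8 that fell, H1f0 overlapped between the genotypes (29.2 CPM in replicate 3 of treated Atf4 KO, against 28 CPM in replicate 3 of treated Rosa26 cells), as did H2bc12 (0.749 CPM in replicate 2 against 0.726 CPM in replicate 1), and the other 6 did not. Of the S phase genes 41 of 43 fell, and of the G2 and M phase genes 48 of 52. Leaving out replicate 1 of the treated Atf4 KO cells left 4 members past the threshold, replicate 2 or 3 of the treated Rosa26 cells 6, and only the compared libraries in the fit 3.

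Cebpg KO and Rosa26 cells had near-equal histone sums, while the sums of single classes differed more. Untreated, the H2A genes stood at 0.782 of the Rosa26 level and the H1 genes other than H1f0 at 1.32. With halofuginone the H3 genes stood at 0.786. The H1 genes other than H1f0 then stood at 1.37, with 18, 42.1 and 22.2 CPM in Cebpg KO libraries. The H2B and H4 sums stood at 0.88 to 1.06. Untreated, no member passed in edgeR (2.29% of all genes fell and 2.71% rose, 5% in all), 6 had an unadjusted p under 0.05, 1 passed in DESeq2, the median was -0.04, and the summed level was 0.969 of the Rosa26 level, with the 4 RNAs without a usual poly-A tail at 2.11 and the unconfirmed transcripts at 1.69 times their Rosa26 levels; 2 of 43 S phase genes and 30 of 52 G2 and M phase genes fell. With only the compared libraries 6 members passed, and without the 3 libraries low in Malat1 5 did. With halofuginone H3c3 (-0.71, edgeR adjusted p 0.01) and H2ac11 (-1.08, 0.0414) fell (13.1% of all genes fell) and none rose (5.74% rose, 18.9% in all), with a median of 0.06 and a summed level 0.967 of the Rosa26 level. H3c3 lay below Rosa26 in every treated Cebpg KO library, whereas H2ac11 at 1.53 CPM in replicate 3 overlapped with Rosa26. In that comparison 39 S phase and 42 G2 and M phase genes fell. Without replicate 2 of the treated Rosa26 cells 0 members passed, without replicate 1 or 2 of the treated Cebpg KO cells 1 did, and the median without that replicate 2 was -0.48. The knockout comparisons share the Rosa26 libraries, so they are not independent of each other.

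**Figure D5:**
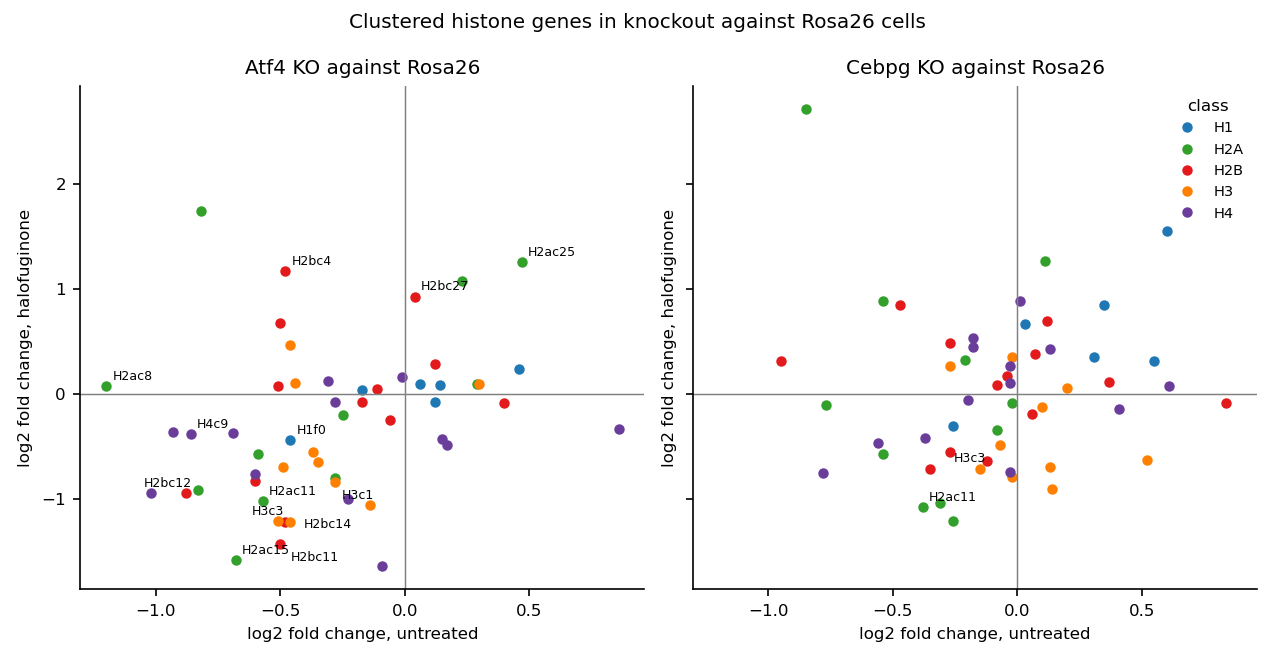
Log2 fold change of each member in a knockout against Rosa26, untreated (x axis) and with halofuginone (y axis), for Atf4 KO and Cebpg KO cells; names mark members with an adjusted p under 0.05 in either comparison. H3c3, H2bc12 and H1f0 are below 0 on both axes in Atf4 KO cells, where H2bc4, H2ac25 and H2bc27 stand above 0 with halofuginone.

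Whether halofuginone changed the members by a different amount in a knockout was tested as an interaction. For Atf4 KO, 1 member passed, H2bc4, with a difference of 1.65 ± 0.477 in log2 fold change (edgeR adjusted p 0.0429; 2.41% of all genes were higher and 4.01% lower, 6.42% in all), and 4 had an unadjusted p under 0.05. The median difference over the members was -0.06 and the median standard error of a member was 0.528, against a median of -0.38 and a standard error of 0.108 for the S phase genes, of which 25 of 43 fell further in Atf4 KO cells. For Cebpg KO no member passed (0.374% of all genes were higher and 2.1% lower, 2.47% in all), 4 had an unadjusted p under 0.05, 1 passed with the Malat1 covariate, and the median difference was 0.02 with a median standard error of 0.529; 22 of the 43 S phase genes fell further, with a median of -0.42. At these low counts a difference between genotypes of the size seen for the S phase genes was not detectable in a single member.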

How the data were processed

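Poly-A RNA was measured in 18 libraries, 3 in each of 6 groups. Per the labels' protocols, mRNA was captured on beads and made into a directional library with dUTP; per the submitters' processing notes FastQC, MultiQC, Trimmomatic, STAR, HTSeq and edgeR were used with build GRCm39. The version of each tool, the strand setting and the handling of multiply mapped reads is not given in the sources used here. Values are raw counts of reads for each gene as deposited, per the file headers, and whole numbers. Names were blank for 449 genes; 431 were filled by identifier, and none matched the family rule.

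All 18 libraries entered 1 fit (edgeR 4.0.16 in R 4.3.3, limma 3.58.1, TMM factors, quasi-likelihood F test with robust prior, 1 term per group). No gene of the 14695 fell to filterByExpr (minimum count 10), and p-values were adjusted over all of them (Benjamini-Hochberg, threshold 0.05). Fold changes are log2 with the standard error of the fit; levels are TMM-scaled CPM with the SD over 3 libraries. The tests were run on simulated counts first. Alternatives were DESeq2 1.42.0, other scaling, filters and samples, a replicate block, a Malat1 covariate, and leaving out libraries. Total counts of 14.2 to 20.3 M limit the precision of members with few reads.

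Members, gene lists and tests were chosen with earlier results of these data known. Named members are the 2 most abundant and the 2 with the smallest p of each class, those that rose with the drug, up to 3 of each knockout or interaction test, and H1f0; others complete a count or pair or are said to be picked after their values were seen. Transcripts (GENCODE M21) and promoters (RefSeq) are of GRCm38, another build than the counts; they were matched by identifier or name. The plan foresaw stem-loops only from the build of the counts, and proteins, which were not used here.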

Additional observations from a re-analysis of the deposited data

Results flagged for a closer look

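The halofuginone response of H2bc4, an H2B gene of the chromosome 13 cluster, differed between Atf4 KO and Rosa26 cells by 1.65 ± 0.477 in log2 fold change, by the interaction test across all genes (edgeR adjusted p 0.0429). H2bc4 was the only member past that test. The call was lost without any 1 of 5 libraries: replicates 1 and 2 of untreated Atf4 KO, replicate 3 of treated Rosa26, and replicates 1 and 3 of untreated Rosa26 cells, each of which left 0 members past the threshold.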

How the results depend on the processing

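Medians of the drug comparisons stayed below 0 under every alternative run; in Atf4 KO, Cebpg KO and Rosa26 cells 37 to 42, 33 to 46 and 37 to 46 members passed when single libraries were left out. Requiring at least 5 CPM in 3 libraries left 18 members to test, of which 15, 14 and 15 passed. Knockout counts depended more on the setting. For treated Atf4 KO against Rosa26 (11 members) 7 passed at 5 CPM, 3 with only the compared libraries and 4 to 11 without single libraries. For untreated Atf4 KO (5) it was 8 in DESeq2, 1 with the Malat1 covariate, 14 with only the compared libraries, 13 without the 3 libraries low in Malat1, and 2 to 5 without single ones. For treated Cebpg KO (2) it was 0 with the covariate and with only the compared libraries, and 0 to 3 without single ones, where the median ran from -0.48 to 0.26. For untreated Cebpg KO (0) it was 1, 6 and 5 in DESeq2, with only the compared libraries and without the 3 libraries. The Atf4 interaction (1) had 2 at 5 CPM, 3 with the covariate, 0 with only the compared libraries and 0 to 2 without single ones; the Cebpg interaction (0) had 1 with the covariate, and its median ran from -0.39 to 0.23. The causes were not tested, beyond fewer genes or samples by construction. Of the values of named members, 855 kept their side of the threshold, 22 lost it, 2 gained it and 0 reversed. The summed levels without the 3 libraries low in Malat1 were added after seeing the data. Upper-quartile scaling shifted the median of all genes by 0.11 for Cebpg KO with halofuginone.

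Deviations of same-numbered libraries from their group means correlated between -0.718 and 0.344. With 3 libraries a group these deviations are tied to each other, so the correlations cannot show what a replicate number shares. With the replicate block 46, 42 and 44 members passed for the drug in Atf4 KO, Cebpg KO and Rosa26 cells, 11 and 5 for treated and untreated Atf4 KO against Rosa26, 2 and 0 for Cebpg KO, and 1 and 0 for the interactions.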
